A study of Mus musculus with 18 samples.

Results

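The closing days of the regenerative period of the mouse heart were examined in Tcf21-lineage cardiac fibroblasts by comparing 6 bulk RNA-sequencing libraries. The younger group, P2 sham +3 days, held 3 libraries from pups that were given sham surgery at P2 and collected 3 days later, at P5. The older group, P10 baseline, held 3 libraries from un-manipulated pups collected at P10. These 6 libraries are part of a series of 18. Its other groups, also of 3 libraries, are P2 baseline and P2 resected +3 days on the younger side and P10 resected +3 days and P10 sham +3 days on the older side. The members were taken by their labels and not by any measured value, and all genes that passed a filter on low counts were tested. All pups were Tcf21-MerCreMer/+; Rosa-mTmG/+ mice and received tamoxifen at P1. GFP therefore marks cells in which the Tcf21 locus drove Cre shortly after birth and the cells that descend from them. The authors purchased C57BL/6J mice, and their methods do not spell out the background of these pups. The libraries were made from GFP+ cells of the apical part of the ventricular tissue, which takes in more than the apex, and cells without recombination carry tdTomato. The sham pups at P5 had a thoracotomy under hypothermia and analgesia, the P10 pups had no surgery, and tissue was digested for 20 minutes at P2 to P5 and for 30 minutes at P10 to P13. Age, sham surgery and digestion time therefore differ together between the groups, and their parts cannot be told apart within this comparison. Pup sex and the number of pups behind a library are not given in the sources used here.

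Cardiac fibroblasts make and remodel the collagen and elastic matrix of the heart, and after birth they pass from dividing cells to a quiet population that maintains the tissue. A dividing cell copies its DNA in S phase with helicases, polymerases and nucleotide-making enzymes, and then builds a spindle and separates its chromosomes in M phase under the control of Cdk1 and the A- and B-type cyclins. Elastic fibres form when tropoelastin is laid on microfibrils with the help of fibulins, emilins and latent TGF-beta binding proteins and is crosslinked by lysyl oxidases.

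The sorted cells carried the transcripts their label calls for. Tcf21, a transcription factor of the cardiac fibroblast lineage, measured 251, 447 and 296 CPM at P5 and 232, 344 and 376 CPM at P10, in TMM-scaled counts per 1e+06 reads (CPM). The groups overlapped for Tcf21, and the difference did not pass the test (log2 fold change -0.06, adjusted p = 0.961). Fold changes are P10 over P5 throughout, so a positive value is higher at P10, and p-values are those of edgeR's quasi-likelihood test, adjusted over all genes tested. Pdgfra, the receptor stained at the sort, measured 559, 256 and 287 CPM at P5 and 836, 415 and 336 CPM at P10, and the matrix protein gene Postn measured 17359, 6223 and 12591 CPM at P5 and 13334, 4388 and 3819 CPM at P10. Library 1 of each group was the highest in its group for both genes, and across genes P5 library 1 correlated more closely with P10 library 1 (r = 0.889) than with the other P5 libraries (r = 0.852 and 0.868), as a description. The main counts are therefore also given without both of them. Between 10462737 and 21089775 reads were counted on genes in the 6 libraries. Xist without Y-linked transcripts was found in libraries 1 and 3 at P5 and library 1 at P10, Y-linked transcripts without Xist in library 2 at P5, and both in libraries 2 and 3 at P10. The titles of these 2 P10 libraries end in a P that the labels do not explain, and whether they hold cells of several pups is not given, so the spread within P10 may not be that between single pups. None of the 5 sex-linked genes passed the test.

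Markers of other cell types were present at low to moderate levels. The 15 macrophage markers summed to 8.41 to 216 CPM at P5 and 19.96 to 257 CPM at P10, with Adgre1 and Cx3cr1 at 0 in library 1 of each group. The 14 cardiomyocyte markers summed to 984 to 1354 CPM at P5 and 554 to 736 CPM at P10, and all 13 that were tested had a log2 fold change below 0 (median -0.75), 4 of them with an unadjusted p under 0.05, although none passed the test. Myl7 was at 0 in all P10 libraries and in libraries 1 and 3 at P5. The 11 mural cell markers summed to 617 to 1443 CPM at P5 and 1284 to 2148 CPM at P10, and 10 of the 11 had a log2 fold change above 0 (median 0.87, 5 with an unadjusted p under 0.05), of which Vtn passed the test. Endothelial markers summed to 180.2 to 339.6 CPM and 315 to 390.1 CPM, mostly from Tek. Aldh1a2 gave nearly all of the epicardial sum of 819.8 to 1164 CPM at P5 and 917 to 1111 CPM at P10, while Upk1b and Krt8 were at 0 in all P10 libraries and in libraries 1 and 3 at P5. Of the 10 epicardial markers tested, 7 had a log2 fold change below 0 (median -3.30), 4 of them with an unadjusted p under 0.05, and none passed. Over all 16170 genes tested, 7628 were above 0 and 8420 below 0. With an unadjusted p under 0.05, 1171 of all genes were higher and 1234 lower, and 0.693% passed as higher. The part of these cells in the results was not tested, and in bulk samples fewer cells of a type and less RNA per cell cannot be told apart.

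The genes that passed the test included cell division genes that were lower and matrix genes that were higher at P10 than at P5. Of 16170 genes tested, 214 (1.32%) passed an adjusted p of 0.05, with 112 (0.693%) higher and 102 (0.631%) lower at P10. The CPM of the groups did not overlap for any of these 214 genes, against 13.0% of all genes tested (6.36% higher and 6.60% lower at P10). The median change was 4.47-fold for the genes lower at P10 and 2.57-fold for the genes higher at P10. These medians cover only genes that passed, some with 0 or few reads in a group, and their difference was not tested. More than a log2 unit separated the groups for 97 of the lower and 104 of the higher genes, and more than 3 log2 units for 20 and 7. Of the 102 lower genes, 35 belonged to at least 1 of the 49 gene lists used here, and of the 112 higher genes 41 did, where 1063 of the 16170 genes tested (6.57%) did. The lists were written with earlier results of these data known, so the shares of list members called, here and below, are descriptions and not tests. The test took its spread from all 18 libraries, and when it was fitted on the 6 libraries alone only Hmcn2 passed, while DESeq2 on all libraries called 907 genes and included all 214. Leaving out 1 library changed the count to 442, 138 or 102 genes without P5 library 1, 2 or 3 and to 431, 65 or 78 genes without P10 library 1, 2 or 3. Without library 1 of both groups 510 genes passed. Every one of the 214 genes kept its direction in all of these fits, which is nearly fixed in advance for genes whose groups do not overlap. Of them, 48 genes (31 higher and 17 lower) passed in each of the 6 fits that left out 1 library.

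**Figure D1:**
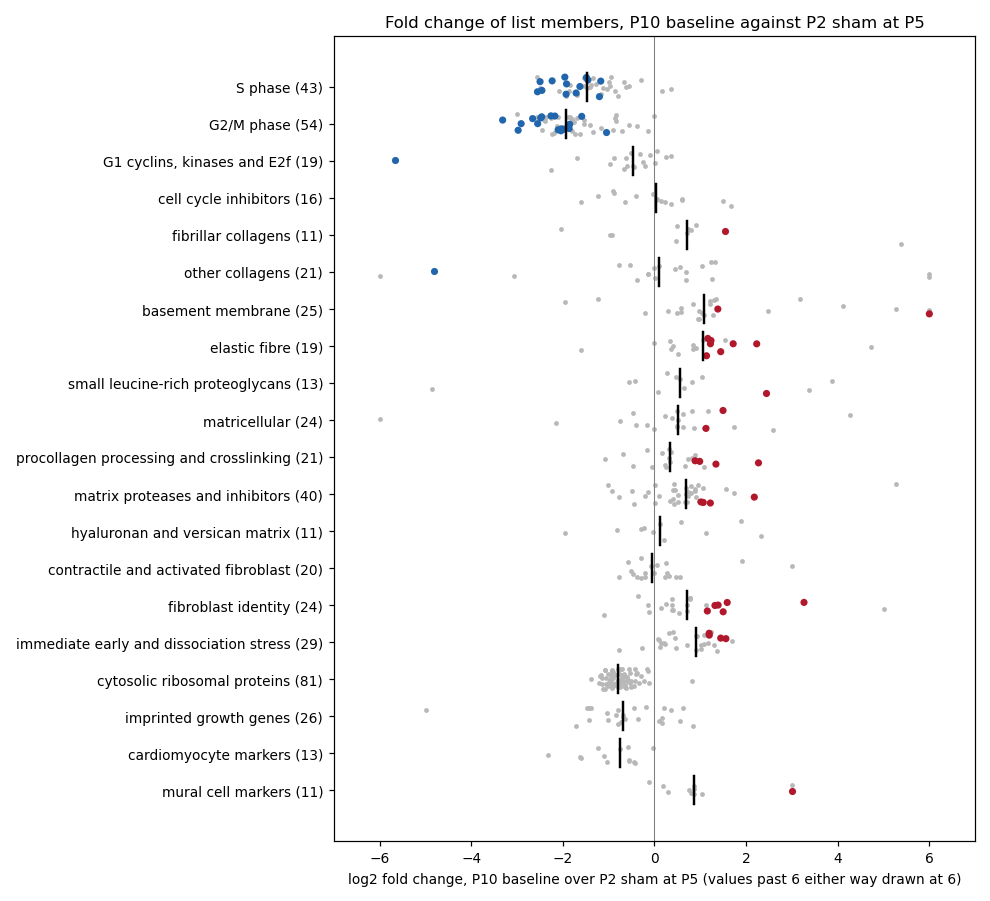
Log2 fold change (x axis, P10 baseline over P2 sham at P5) of each tested member of 20 gene lists (y axis, number tested in brackets). Red and blue points passed the test as higher and lower at P10, grey points did not, and the black bar is the median of the list. The S phase and G2/M phase lists lie almost wholly below 0, with medians of -1.47 and -1.93, while the elastic fibre and basement membrane lists lie mostly above 0.

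Of the genes of DNA replication and mitosis, 30 of 97 fell between P5 and P10, and nearly all others had values below 0. Of the 43 S phase genes 13 were lower, of the 54 G2/M phase genes 17 were lower, and none of these 97 genes was higher. The 30 lower genes make 30.9% of the 2 lists, where 0.631% of all genes were lower. Among all 97, 95 had a log2 fold change below 0, with a median of -1.73 against -0.04 over all genes. Summed over the list, S phase transcripts stood at 2471 to 2947 CPM at P5 and 990.4 to 1205 CPM at P10, and G2/M phase transcripts at 4109 to 5219 CPM and 1576 to 2191 CPM. Of the 30, 7 passed in each fit that left out 1 library. The number of lower genes in the 2 lists depended on the libraries, with 29, 21 or 13 without P5 library 1, 2 or 3 and 46, 8 or 8 without P10 library 1, 2 or 3. It was 41 without library 1 of both groups and 0 when the 6 libraries were fitted alone.

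The mitotic kinase Cdk1 and the A- and B-type cyclins passed as lower. Cdk1 and Ccnb2 belong to the G2/M phase list, while Ccna2 and Ccnb1 were named beside the lists. Cdk1, the mitotic kinase, measured 108, 262 and 213 CPM at P5 and 51.1, 29.96 and 24.8 CPM at P10. All P10 libraries lay below all P5 libraries, and the log2 fold change was -2.46 ± 0.46 (SE, adjusted p = 0.0117). Its partner Ccna2, cyclin A2, measured 118, 105 and 172 CPM at P5 and 39.98, 16.4 and 13.9 CPM at P10 and fell by 2.49 log2 units (adjusted p = 0.0101). Ccnb1, cyclin B1, measured 34.7, 67.6 and 89.7 CPM at P5 and 17.5, 5.62 and 7.30 CPM at P10 (log2 fold change -2.65, adjusted p = 0.0213). About 50.7% of the longest Ccnb1 transcript is shared in stretches of 50 bases with other genes, mostly its pseudogenes, so its count is less certain. Ccnb2, cyclin B2, measured 101, 97.3 and 119 CPM at P5 and 24.3, 29.00 and 34.04 CPM at P10 (log2 fold change -1.86, adjusted p = 0.0154). Library 1 was the highest at P10 for Cdk1, Ccna2 and Ccnb1, and the lowest at P5 for Cdk1 and Ccnb1. With 1 library left out the adjusted p of these genes rose to at most 0.0818 for Cdk1, 0.0741 for Ccna2, 0.134 for Ccnb1 and 0.0923 for Ccnb2, each time without P10 library 2.

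In the G2/M phase list 5 genes passed in each fit that left out 1 library, and 3 of them act at the kinetochore or with it. Ndc80, the kinetochore protein that binds spindle microtubules, measured 43.2, 14.7 and 53.2 CPM at P5 and 2.73, 4.66 and 3.75 CPM at P10, a log2 fold change of -3.31 ± 0.55 (SE, adjusted p = 0.00670). Nuf2, its partner in the same complex, measured 50.99, 53.5 and 73.04 CPM at P5 and 11.6, 4.17 and 6.71 CPM at P10 and fell by 2.98 log2 units (adjusted p = 0.00677). Birc5, survivin, a member of the chromosomal passenger complex, measured 67.8, 105 and 96.7 CPM at P5 and 12.9, 9.90 and 19.9 CPM at P10, with a log2 fold change of -2.66 ± 0.43 (SE, adjusted p = 0.00670). In each of these genes the highest P10 library was below the lowest P5 library. Cks2, a small Cdk1-binding protein, measured 18.8, 38.7 and 27.2 CPM at P5 and 6.67, 3.42 and 5.03 CPM at P10 (log2 fold change -2.48, adjusted p = 0.00570), and Hmgb2, a chromatin protein of dividing cells, measured 148, 219.8 and 159 CPM at P5 and 61.5, 27.6 and 39.7 CPM at P10 (log2 fold change -2.03, adjusted p = 0.00570). The other genes of this list that fell were Ube2c, Nusap1, Dlgap5, Pimreg, Kif23, Anln, Cdca8, Cdca3, Tacc3 and Tmpo, at -2.91 to -1.05 log2 units, beside Cdk1 and Ccnb2. Dlgap5, a spindle assembly factor, was the only named gene called here that lost its call when the replicate number was taken as a block (adjusted p = 0.055).

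Other genes of cell division outside the lists were also lower, and those given next were chosen after their values were seen. The NDC80 complex has 4 subunits, of which Ndc80 and Nuf2 are counted in the G2/M phase list, and the other two passed as well, with Spc25 at a log2 fold change -3.11, adjusted p = 0.00670 and Spc24 at a log2 fold change -2.50, adjusted p = 0.0183. Of 20 tested genes for centromere proteins, all had a log2 fold change below 0 and 3 (Cenpi, Cenpp and Cenpq) were lower by the test, where 8420 of all 16170 genes were below 0 and 0.631% were lower. Plk1, the polo-like kinase that drives entry into mitosis, measured 28.9, 49.7 and 50.1 CPM at P5 and 5.82, 7.81 and 4.14 CPM at P10 (log2 fold change -2.85, adjusted p = 0.00155). Mad2l1, a protein of the spindle checkpoint, measured 50.3, 77.7 and 121 CPM at P5 and 28.7, 11.6 and 14.2 CPM at P10 (log2 fold change -2.19, adjusted p = 0.00670). Tk1, the thymidine kinase of S phase, measured 67.8, 106 and 90.7 CPM at P5 and 21.7, 12.3 and 16.7 CPM at P10 (log2 fold change -2.38, adjusted p = 0.00451). Plk1, Mad2l1, Tk1 and Spc25 passed in each fit that left out 1 library.

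The 13 S phase genes that fell include enzymes that make nucleotides and a primase, while the other 30 of the list did not pass. Rrm2, the regulated subunit of ribonucleotide reductase, measured 101, 91.6 and 144 CPM at P5 and 38.3, 21.1 and 27.4 CPM at P10, a log2 fold change of -1.96 ± 0.34 (SE, adjusted p = 0.00860). Rrm1, the large subunit, fell less, by 1.45 log2 units (adjusted p = 0.0141), and Tyms, thymidylate synthase, by 1.93 (adjusted p = 0.0195). Prim1, the primase that starts new DNA strands, was even within groups, at 45.8, 44.3 and 46.5 CPM at P5 and 6.73, 9.26 and 8.88 CPM at P10 (log2 fold change -2.46, adjusted p = 0.00570). Mcm6 measured 239, 284 and 255 CPM at P5 and 98.8, 118 and 121 CPM at P10 (log2 fold change -1.20, adjusted p = 0.0126) and was the only subunit of the replicative MCM helicase to pass, although all 6 subunits had values below 0, from -1.42 to -0.86. Pcna, the sliding clamp of DNA polymerase, measured 87.4, 125 and 133 CPM at P5 and 54.96, 29.1 and 39.4 CPM at P10 (log2 fold change -1.49, adjusted p = 0.0100), and 45.5% of its transcript is shared with other genes. Nasp, a histone chaperone, fell by 1.71 log2 units and, like Prim1, passed in each fit that left out 1 library. Gmnn, Rad51ap1, Uhrf1, Chaf1b, Cdc45 and Tipin complete the 13.

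**Figure D2:**
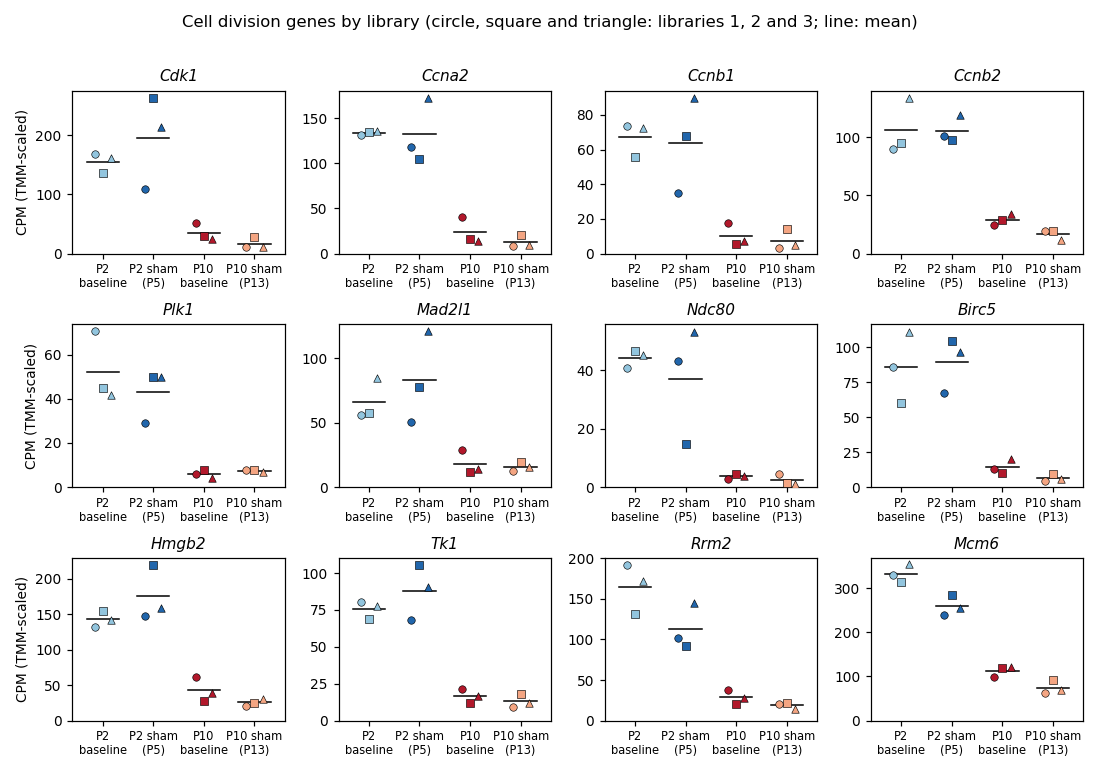
TMM-scaled CPM (y axis, linear from 0) of 12 cell division genes in the libraries of P2 baseline, P2 sham at P5, P10 baseline and P10 sham at P13 (x axis). Each point is a library and each line a group mean. For each gene all P10 baseline points lie below all P2 sham points, as with Cdk1 at 24.8 to 51.1 against 108 to 262 CPM.

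Promoter sequences of 3 genes that fell are shown because genes of mitosis share short elements near their start. The window of 250 bases before to 50 bases after the start, from RefSeq on GRCm38.p6, was searched on both strands for CCAAT, the letters bound by the factor NF-Y, and for TTTGAA or TTCGAA, the cell cycle genes homology region. The 3 are among the 4 called G2/M phase genes with the smallest p, and capitals mark the letters found. The windows are Cks2 at chr13:51644982-51645281 (plus strand), Birc5 at chr11:117848987-117849286 (plus strand) and Ndc80 at chr17:71526808-71527107 (minus strand).
Cks2: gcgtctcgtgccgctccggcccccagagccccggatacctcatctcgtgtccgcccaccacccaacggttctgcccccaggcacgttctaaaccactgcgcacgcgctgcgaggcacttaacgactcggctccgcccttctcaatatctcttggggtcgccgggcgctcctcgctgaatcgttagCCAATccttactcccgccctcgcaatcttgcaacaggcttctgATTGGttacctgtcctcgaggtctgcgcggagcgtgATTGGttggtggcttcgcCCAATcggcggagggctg
Birc5: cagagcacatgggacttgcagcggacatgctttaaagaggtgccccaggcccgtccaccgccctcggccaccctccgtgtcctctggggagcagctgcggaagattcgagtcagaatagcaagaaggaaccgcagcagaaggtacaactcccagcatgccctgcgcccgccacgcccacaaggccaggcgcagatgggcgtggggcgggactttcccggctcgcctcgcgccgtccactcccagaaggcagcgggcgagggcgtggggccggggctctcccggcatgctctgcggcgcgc
Ndc80: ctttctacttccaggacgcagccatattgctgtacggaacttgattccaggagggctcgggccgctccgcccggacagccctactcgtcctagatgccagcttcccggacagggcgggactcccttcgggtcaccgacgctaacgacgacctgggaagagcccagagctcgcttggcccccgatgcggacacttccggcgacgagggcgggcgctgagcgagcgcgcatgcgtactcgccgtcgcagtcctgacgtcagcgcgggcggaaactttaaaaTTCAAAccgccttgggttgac

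The Cks2 window held CCAAT 4 times on either strand and no homology region. The Ndc80 window held the homology region as TTCAAA, the reverse complement of TTTGAA, 29 bases after the start. None of these letters lay in the Birc5 window, and none of the 2 GENCODE M21 transcripts of Birc5 held the bases just after the RefSeq start. Of 27025 gene windows in the RefSeq table, 37.9% held CCAAT, 19.4% the homology region and 7.7% both, and for the 11504 tested genes with a window the shares were 38.3%, 13.7% and 5.78%. The shares were 76.6%, 74.5% and 61.7% for the 47 genes of the whole G2/M phase list with a window, and 67.7%, 16.1% and 12.9% for 31 genes of the S phase list. They were 62.5%, 56.2% and 43.8% for the 16 genes with a window among those of the G2/M phase list and the cyclins that fell. Among genes that passed the test they were 63.9%, 39.8% and 28.9% for 83 lower genes and 37.9%, 9.2% and 2.3% for 87 higher genes. Matches are descriptions of letters and not of bound sites.

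The 12 genes with the largest falls, among those called and at 5 CPM or more at P5, were Pif1, Gen1, E2f2, Col7a1, Ankle1, Esco2, Depdc1a, Palb2, Kif15, Ndc80, Cdkn3 and Ncapg. Pif1, a DNA helicase, measured 13.3, 4.80 and 7.57 CPM at P5 and 0, 0.107 and 0 CPM at P10, so that 507 reads at P5 stood against 2 at P10, a ratio of 196 with a counting interval of 54.0 to 1625. Without P10 library 1 the ratio was 125, and without P10 library 2, which held both reads, it was at least 76.0-fold lower at P10. Gen1, a resolvase of recombination intermediates, measured 11.01, 13.5 and 6.20 CPM at P5 and 0, 0.268 and 0 CPM at P10 (log2 fold change -6.56, adjusted p = 0.0243). E2f2, a transcription factor of the G1/S transition, measured 8.73, 12.6 and 4.83 CPM at P5 and 0.303, 0.161 and 0 CPM at P10 (log2 fold change -5.66, adjusted p = 0.00698). It was the only one of 19 genes for G1 cyclins, their kinases and E2f factors to pass, where 0.631% of all genes were lower. Its call held in 5 of the 6 fits that left out 1 library. These 3 genes were near 0 in every P10 library. Esco2, which acetylates cohesin, measured 29.9, 10.7 and 25.7 CPM at P5 and 3.22, 0.482 and 0.0987 CPM at P10 (log2 fold change -4.09, adjusted p = 0.0272). Kif15, a mitotic kinesin, measured 68.7, 23.5 and 23.1 CPM at P5 and 5.52, 4.07 and 1.87 CPM at P10 (log2 fold change -3.32, adjusted p = 0.00711). Ncapg, a condensin subunit, measured 25.4, 4.84 and 34.6 CPM at P5 and 4.06, 2.41 and 0.395 CPM at P10, and its P5 library 2 stood close to its P10 library 1 (log2 fold change -3.21, adjusted p = 0.0378). Of the 12, Pif1, Kif15 and Ndc80 passed in each fit that left out 1 library, and Palb2, a partner of Brca2, passed in none of them (log2 fold change -3.57, adjusted p = 0.0485, with all libraries). Col7a1, the collagen of anchoring fibrils, was the only matrix gene that fell and varied widely at P5, at 13.7, 6.50 and 1.04 CPM at P5 and 0.546, 0.161 and 0 CPM at P10.

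Histone, ribosomal protein and imprinted genes had medians below 0 and none passed the test. Of 23 replication-dependent histone genes tested, 21 had values below 0, with a median of -2.35, and none passed (11 had an unadjusted p under 0.05). Most of these RNAs carry no poly(A) tail, and the library kit primes on poly(A). Over all 16170 genes tested, 8420 were below 0 and 1234 were lower with an unadjusted p under 0.05. Cytosolic ribosomal protein genes had a median of -0.79, with 80 of 81 below 0 and 52 with an unadjusted p under 0.05, but none passed in edgeR, while 14 passed in DESeq2. P5 library 2 held more of these transcripts (27003 CPM) than the other 5 libraries (9079 to 13797 CPM), and without P5 library 1, 18 of them passed as lower. Short genes as a whole shifted the same way. When genes were split into 5 bins by exon length, the shortest bin had a median of -0.23 and the other 4 bins of -0.02 to 0.01. Ribosomal protein genes are short (median exon length 1739 bases against 4014 over all genes), and their part in this shift was not tested. Among 26 imprinted growth genes the median was -0.68 and none passed. H19 measured 455, 1172 and 709.7 CPM at P5 and 291, 467 and 389 CPM at P10 (log2 fold change -1.03, adjusted p = 0.289) and Dlk1 776, 756 and 563 CPM at P5 and 398, 449 and 365 CPM at P10 (log2 fold change -0.79, adjusted p = 0.303). Igf2bp3, a fetal RNA-binding protein, came closest among the oncofetal genes (log2 fold change -1.48, adjusted p = 0.0510).

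A few other genes that fell act outside cell division, as the lists or textbook knowledge place them. Ptn, the growth factor pleiotrophin, measured 1064, 1205 and 1194 CPM at P5 and 718, 463 and 521 CPM at P10, a log2 fold change of -1.02 ± 0.23 (SE, adjusted p = 0.0364). Fabp5, a fatty acid binding protein, measured 152, 279.6 and 262 CPM at P5 and 84.6, 97.1 and 102 CPM at P10 (log2 fold change -1.29, adjusted p = 0.0151). Oas1a, an interferon-stimulated gene, measured 2.79, 5.07 and 2.28 CPM at P5 and 0, 0.107 and 0.0987 CPM at P10, from 205 reads at P5 and 3 at P10 (ratio 52.9, counting interval 17.8 to 259), and 83.6% of its transcript is shared with related genes. The ratio was 33.6 without P10 library 1 and 93.2 without P10 library 2. Ptn and Fabp5 each passed in 2 of the 6 fits that left out 1 library. Of 10 tested SR splicing factors, a family picked after its values were seen, Srsf1, Srsf3, Srsf7 and Srsf10 fell, by 0.82 to 0.93 log2 units, where 0.631% of all genes were lower, and each passed in 1 to 3 of the 6 fits that left out 1 library. Capn6, a calpain-like protein that binds microtubules, was also chosen after its values were seen, measured 139, 107 and 105 CPM at P5 and 50.2, 36.1 and 50.4 CPM at P10 (log2 fold change -1.36, adjusted p = 0.00670) and passed in each fit that left out 1 library.

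A minority of the genes for the extracellular matrix and its processing passed as higher. In 9 lists of matrix genes, 185 were tested, of which 21 were higher and 1 lower at P10, or 11.9% against 1.32% of all genes. Of the 185, 141 had a log2 fold change above 0, with a median of 0.66, and 42 had one below 0. In the elastic fibre list 7 of the 19 tested members were higher (Emilin2, Eln, Mfap4, Fbln2, Ltbp3, Ltbp4 and Fbln5), none was lower and the median was 1.06. The number of higher matrix genes was 35, 13 or 11 without P5 library 1, 2 or 3 and 26, 9 or 13 without P10 library 1, 2 or 3. It was 30 without library 1 of both groups and 1 when the 6 libraries were fitted alone.

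Elastin and 6 other genes of the list rose, by 1.14 to 2.23 log2 units, while the other 12 did not pass. Eln, tropoelastin, measured 785, 1177 and 712 CPM at P5 and 2412, 3888 and 2495 CPM at P10, a log2 fold change of 1.72 ± 0.36 (SE, adjusted p = 0.0241). Emilin2, an elastic fibre interface protein, measured 55.1, 74.4 and 107 CPM at P5 and 385, 387 and 337 CPM at P10, a log2 fold change of 2.23 ± 0.27 (SE, adjusted p = 0.00133). For both genes even the lowest P10 library lay well above the highest P5 library. Fbln5, a fibulin that binds tropoelastin, measured 281, 331 and 354 CPM at P5 and 765, 696 and 661 CPM at P10 (log2 fold change 1.14, adjusted p = 0.0107), and Fbln2 measured 645, 648 and 839 CPM at P5 and 1643, 1797 and 1573 CPM at P10 (log2 fold change 1.23, adjusted p = 0.0181). Mfap4, a microfibril-associated protein, measured 702, 769.6 and 600.0 CPM at P5 and 1744, 2232 and 1666 CPM at P10 (log2 fold change 1.45, adjusted p = 0.0119). Ltbp3 and Ltbp4, which hold latent TGF-beta and, for Ltbp4, help to deposit elastin, rose by 1.22 and 1.16 log2 units (adjusted p = 0.0181 and 0.0261). Emilin2 and Fbln5 passed in each fit that left out 1 library, and the adjusted p of Eln rose to at most 0.139 without P10 library 2. Fbn1 and Fbn2, the fibrillins of the microfibril, did not pass. Fbn1 measured 1744, 575 and 611 CPM at P5 and 3650.0, 1544 and 897 CPM at P10 and followed library 1 in both groups, and Fbn2 measured 281, 67.6 and 78.00 CPM at P5 and 261, 99.1 and 61.9 CPM at P10.

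Some genes that process procollagen and the matrix also rose. In the list of procollagen processing and crosslinking 4 of 21 genes passed as higher, with 5 below 0, and in the list of matrix proteases and their inhibitors 4 of 40 did, with 7 below 0, where 0.693% of all genes were higher. Pcolce2, an enhancer of procollagen C-proteinase, measured 23.8, 38.1 and 19.6 CPM at P5 and 114, 124 and 156 CPM at P10, a log2 fold change of 2.27 ± 0.29 (SE, adjusted p = 0.00140). All P10 libraries lay above all P5 libraries by a wide margin. Loxl1, a lysyl oxidase of elastic fibres, rose by 0.99 log2 units, P4ha2, a prolyl hydroxylase of collagen, by 1.34 and Adamts2, the procollagen N-proteinase, by 0.89 (adjusted p = 0.00964, 0.0388 and 0.0377). Mmp2, gelatinase A, measured 2274, 1921 and 1663 CPM at P5 and 3932, 4246 and 4072 CPM at P10 (log2 fold change 1.06, adjusted p = 0.00670). Timp2, an inhibitor that also helps to activate Mmp2, measured 1350.4, 1313 and 1317 CPM at P5 and 2613, 2903 and 2529.8 CPM at P10 (log2 fold change 1.02, adjusted p = 0.00595). Both genes were tight within groups and rose by about 1 log2 unit, a factor of 2. Adamtsl2 and Adamtsl4, secreted relatives of the ADAMTS proteases that bind microfibrils, rose by 2.18 and 1.22 log2 units. Pcolce2, Mmp2 and Timp2 passed in each fit that left out 1 library.

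Of 11 fibrillar collagen genes tested, 8 had a log2 fold change above 0 and 3 below 0 (from -2.04), where 7628 of all 16170 genes were above 0. A single gene, Col5a3, rose (0.693% of all genes did), at 199.5, 171 and 219 CPM at P5 and 584, 644 and 498 CPM at P10 (log2 fold change 1.55, adjusted p = 0.0117). Col1a1 measured 10274, 5757 and 4339.6 CPM at P5 and 15578, 12370.3 and 10216 CPM at P10 (log2 fold change 0.91, adjusted p = 0.235), and Col3a1 measured 30396, 22921 and 24595 CPM at P5 and 54921, 45505 and 34346 CPM at P10 (log2 fold change 0.79, adjusted p = 0.105). P5 library 1 was the highest of its group for both genes, and its Col1a1 level was above that of P10 library 3. Hmcn2, hemicentin 2 of basement membranes, gave the largest rise with reads in every library, at 2.28, 3.23 and 2.35 CPM at P5 and 332, 157 and 94.6 CPM at P10, a log2 fold change of 6.21 ± 0.57 (SE, adjusted p = 5.52e-05). It passed in each fit that left out 1 library and in the fit of the 6 libraries alone. Lamb2, a laminin chain, rose by 1.38 log2 units (adjusted p = 0.0198), and with Hmcn2 it made 2 of 25 basement membrane genes called, of which 22 had values above 0, against 7628 of all 16170 genes. Podn, a small leucine-rich proteoglycan, measured 10.5, 4.10 and 1.31 CPM at P5 and 21.7, 22.1 and 43.2 CPM at P10 (log2 fold change 2.44, adjusted p = 0.0438). In the matricellular list 2 of 24 genes passed, where 0.693% of all genes were higher, and both did so in every fit that left out 1 library. Tgfbi measured 45.5, 51.2 and 49.5 CPM at P5 and 167, 145 and 99.3 CPM at P10 (log2 fold change 1.50, adjusted p = 0.00857), and Smoc2, a secreted calcium-binding protein, measured 1010.5, 1235 and 1115 CPM at P5 and 2505, 2384 and 2439 CPM at P10 (log2 fold change 1.12, adjusted p = 0.00451). No gene of hyaluronan and versican matrix passed.

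**Figure D3:**
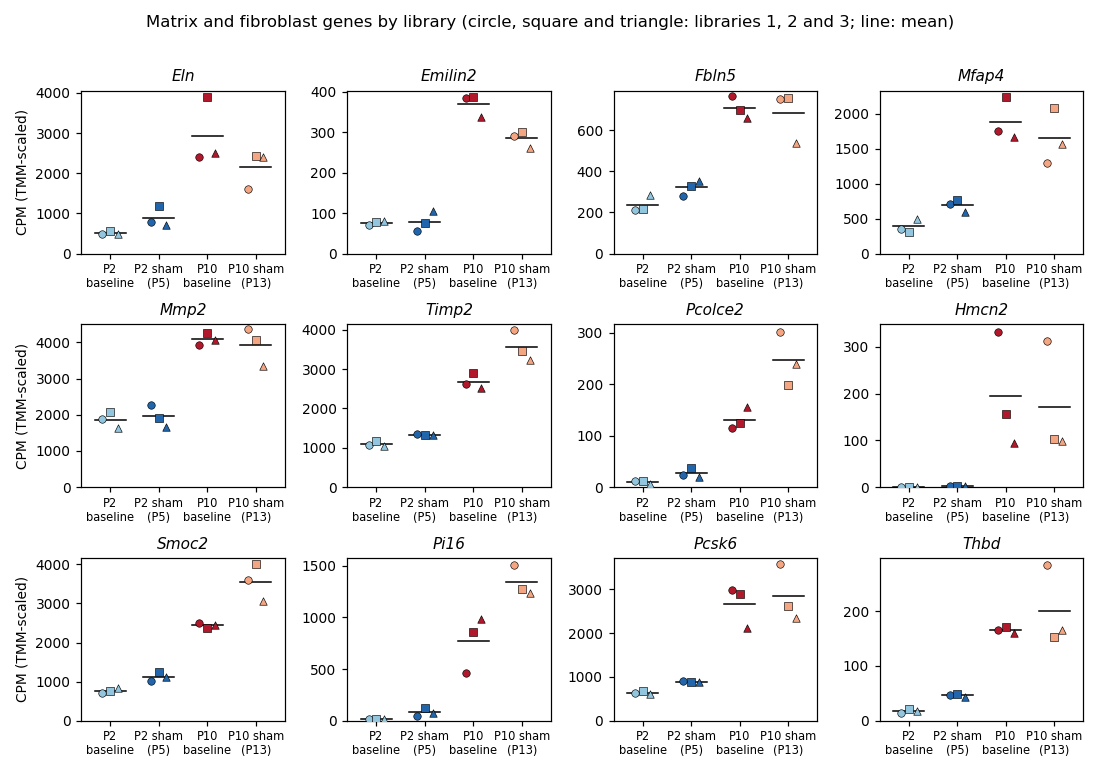
TMM-scaled CPM (y axis, linear from 0) of 12 genes of the matrix and of fibroblasts in the libraries of P2 baseline, P2 sham at P5, P10 baseline and P10 sham at P13 (x axis). Each point is a library and each line a group mean. Hmcn2 is near 0 in both younger groups and at 94.6 to 332 CPM at P10 baseline, and Thbd is tight within groups at P5 and P10 baseline.

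Genes of the fibroblast identity list rose in part. Of 24 fibroblast identity genes 6 were higher and none lower, where 0.693% of all genes were higher, and the median was 0.71. Pi16, a peptidase inhibitor of adventitial fibroblasts, measured 40.8, 127 and 72.6 CPM at P5 and 463, 863 and 984 CPM at P10, a log2 fold change of 3.26 ± 0.42 (SE, adjusted p = 0.00141). Library 1 was the lowest of each group for Pi16. Pcsk6, a proprotein convertase, measured 899, 888 and 876 CPM at P5 and 2994, 2893 and 2114 CPM at P10 (log2 fold change 1.59, adjusted p = 0.00155). Htra3, a secreted serine protease, rose by 1.50 log2 units, Entpd2, an ectonucleotidase, by 1.39, Scara5, a ferritin receptor, by 1.32 and Gsn, the actin-severing gelsolin, by 1.15. Pi16, Pcsk6 and Htra3 passed in each fit that left out 1 library, while 28.8% of the exon length of Entpd2 overlaps Npdc1. Genes of this list that did not pass were, for example, Cd34 (log2 fold change 0.71, adjusted p = 0.117), Clec3b (log2 fold change 1.13, adjusted p = 0.165) and Dpt (log2 fold change -0.12, adjusted p = 0.874). None of 20 contractile and activated fibroblast genes passed, and their median was -0.05. Acta2, smooth muscle actin, measured 518, 815 and 676 CPM at P5 and 462, 772 and 664 CPM at P10 (log2 fold change -0.08, adjusted p = 0.963).

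The 12 genes with the largest rises among those called and at 5 CPM or more at P10 were Olfr78, Hmcn2, Duoxa1, Pi16, Vtn, Podn, Ccrl2, Cln3, Myo1e, Ntn4, Pcolce2 and Emilin2. Olfr78, an olfactory receptor gene known for its place in vascular and carotid body cells, had no read at P5 and 9.28, 5.62 and 3.35 CPM at P10. Against a floor of 3 counts over the P5 group it was at least 119-fold higher, and at least 74.8-fold higher when any of the 6 libraries was left out. Duoxa1, a maturation factor of a dual oxidase, measured 0, 0.0461 and 2.15 CPM at P5 and 4.43, 22.95 and 26.3 CPM at P10 (log2 fold change 4.68, adjusted p = 0.0418), so that P5 library 3 was closest to P10 library 1. Vtn, vitronectin, an adhesive protein that mural cells also make, measured 21.2, 18.4 and 12.01 CPM at P5 and 85.5, 161 and 167 CPM at P10 (log2 fold change 3.00, adjusted p = 0.0134). Of the other 10 mural cell markers none passed, and their sum was 605 to 1422 CPM at P5 and 1117 to 2063 CPM at P10. Ccrl2, an atypical chemerin receptor, and Cln3, a lysosomal membrane protein, rose by 2.36 and 2.34 log2 units (adjusted p = 0.0241 and 0.0102). Myo1e, an unconventional myosin, measured 8.92, 7.56 and 4.96 CPM at P5 and 45.4, 29.00 and 30.6 CPM at P10 (log2 fold change 2.29, adjusted p = 0.00636), and Ntn4, a netrin of basement membranes, measured 4.09, 11.1 and 11.2 CPM at P5 and 31.7, 45.4 and 51.1 CPM at P10 (log2 fold change 2.28, adjusted p = 0.00625). Hmcn2, Pi16, Myo1e, Ntn4, Pcolce2 and Emilin2 passed in each fit that left out 1 library, and the others in 2 to 5 of the 6. Other called genes with no read in a group, chosen after their values were seen, are bounded in the same way by the floor of 3 counts. Slc38a11, a transporter-like gene, had 2.73, 2.62 and 5.82 CPM at P10 (at least 72.7-fold higher), Kcng4, a potassium channel subunit, 1.33, 5.89 and 1.28 CPM (at least 55.3-fold higher) and the antisense transcript Dio3os 1.46, 2.19 and 1.18 CPM (at least 31.4-fold higher). Leaving out 1 library lowered these bounds to 45.8, 25.5 and 19.8, without P5 library 2 for Slc38a11 and Dio3os and without P10 library 2 for Kcng4. On the lower side Tdrkh, a protein of the piRNA pathway, had 3.58, 0.646 and 4.37 CPM at P5 and none at P10 (at least 43.3-fold lower), and Emb, the cell adhesion protein embigin, had 2.93, 1.38 and 2.87 CPM at P5 and none at P10 (at least 36.2-fold lower). Without P10 library 2 these bounds fell to 25.4 and 21.2. Kcng4 passed in each fit that left out 1 library and Emb in 4 of the 6, while Slc38a11, Dio3os and Tdrkh each passed in 2.

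Thbd, thrombomodulin, an anticoagulant receptor, was among the genes fixed by name. It measured 47.4, 48.1 and 43.5 CPM at P5 and 166, 170.3 and 161 CPM at P10, a log2 fold change of 1.84 ± 0.27 (SE, adjusted p = 0.00451). The gap between the groups was far wider than the spread within either of them, and the call held when any 1 of the libraries was left out. Cilp, a matrix protein of cartilage and heart, measured 40.8, 1.94 and 32.5 CPM at P5 and 169, 158 and 122 CPM at P10. The groups did not overlap, but P5 library 2 was near 2 CPM and the difference did not pass (log2 fold change 2.58, adjusted p = 0.105).

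Signalling genes moved singly. Bmp6, a ligand of the BMP family, measured 74.9, 96.2 and 84.1 CPM at P5 and 224, 193 and 213 CPM at P10 (log2 fold change 1.30, adjusted p = 0.00670), and Lrrc32, which docks latent TGF-beta at the cell surface, measured 140.2, 162 and 134 CPM at P5 and 333, 365 and 406 CPM at P10 (log2 fold change 1.34, adjusted p = 0.00670). Both passed in each fit that left out 1 library. Wnt11, a ligand of the Wnt family, rose by 1.67 log2 units, Gfra1, the co-receptor for GDNF, by 1.61 and Igfbp7 by 0.68 (adjusted p = 0.0262, 0.0220 and 0.0316). Ret, the receptor that pairs with Gfra1 and was chosen after its values were seen, measured 60.5, 81.1 and 81.8 CPM at P5 and 203, 228 and 217 CPM at P10 (log2 fold change 1.54, adjusted p = 0.00570) and passed in each fit that left out 1 library. These were 1 of 22 BMP genes, 1 of 20 TGF-beta genes, 1 of 23 Wnt genes, 2 of 24 axon guidance genes with Ntn4, and 1 of 11 genes of the insulin-like growth factor axis, where 0.693% of all genes were higher. Counts of 1 gene in a list this short say nothing of the list. None of 20 FGF genes passed. Cxcl12, the chemokine that retains blood progenitors, rose by 1.57 log2 units and Serping1, the C1 inhibitor, by 1.15 (adjusted p = 0.0289 and 0.0378). Ackr3 and Ackr2, scavenging chemokine receptors of which Ackr3 binds Cxcl12, were chosen after their values were seen and rose by 2.03 and 2.05 log2 units.

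A few immediate early genes rose at P10, in the group digested longer. Of 29 tested, 4 rose (Junb, Dusp1, Klf2 and Jun), none fell, and the median was 0.91, where 0.693% of all genes were higher. Junb, a subunit of the AP-1 transcription factor, measured 1116, 647 and 424 CPM at P5 and 1791, 2219 and 2437 CPM at P10, a log2 fold change of 1.56 ± 0.37 (SE, adjusted p = 0.0485). Jun, another AP-1 subunit, measured 719, 729 and 549 CPM at P5 and 965, 1826 and 1773 CPM at P10 (log2 fold change 1.19, adjusted p = 0.0285). Fos measured 1724, 852 and 466 CPM at P5 and 2504, 3028 and 2310.3 CPM at P10 and did not pass (log2 fold change 1.37, adjusted p = 0.162). The sum of the list was 12525, 7202 and 5322 CPM at P5 and 15911, 18985 and 18591 CPM at P10. No call held in all 6 fits that left out 1 library, and none of the 4 genes passed without P5 library 3 or without P10 library 2 or 3. The part of digestion time in these differences was not tested. For energy metabolism, Pnpla2, the first lipase of triglyceride breakdown, rose by 1.24 log2 units (adjusted p = 0.0183), and no nuclear or mitochondrial gene of oxidative phosphorylation, glycolysis or cholesterol synthesis passed. All 8 mitochondrial genes tested were below 0 (median -0.75), as were 61 of 74 nuclear genes of oxidative phosphorylation (median -0.38). P10 libraries 2 and 3 held 0.253% and 0.198% mitochondrial reads and the other 4 libraries 0.595% to 1.07%, and the part of this in the difference was not tested.

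The place of the P5 group between P2 and P10 was examined with the un-manipulated groups on either side. No gene passed when P2 sham +3 days was tested against the mean of P2 baseline and P10 baseline with edgeR (1430 genes had an unadjusted p under 0.05), while DESeq2 called 161. This test took in all the libraries of the P5 to P10 comparison. No gene passed between P2 sham +3 days and P2 baseline either (1229 genes with an unadjusted p under 0.05, edgeR), a comparison that shares its P5 libraries with the one described above. Between P10 sham +3 days and P10 baseline 1 gene passed (0.00618%), and between P10 baseline and P2 baseline 709 did (4.38%, with 2.71% higher and 1.68% lower at P10), and these share libraries with it too. For S phase genes the median log2 fold change was -0.28 from P2 baseline to P5 and -1.47 from P5 to P10, and for G2/M phase genes it was -0.01 and -1.93. Elastic fibre genes had medians of 0.05 and 1.06, and fibroblast identity genes 0.40 and 0.71. Interferon-stimulated genes had the larger median in the first step, at -1.64 against -0.49 in the second. Both steps use the same P5 libraries, so a shift in that group moves the steps in opposite directions. The mean level of Pcolce2 was 9.71 CPM at P2 baseline, 27.2 CPM at P5 and 131 CPM at P10, and that of Pi16 was 16.5, 80.1 and 769.9 CPM. Emilin2 stood at 76.1, 78.7 and 369.5 CPM. Cdk1 stood at 155, 195 and 35.3 CPM. Each of these genes passed between P5 and P10, and Pi16 and Emilin2 were named for that, so their steps are descriptions.

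The genes called between P5 and P10 were then followed in other libraries of the series. P10 sham +3 days (P13) against P2 baseline has the sham surgery on the older side, and P10 resected +3 days against P2 resected +3 days has the same surgery on both sides. Neither shares a library with the P5 to P10 comparison, although all were scaled and fitted together. Both keep the digestion of 20 minutes on the younger and 30 minutes on the older side, and they span other ages, P2 to P13 and P5 to P13. Age and digestion time therefore cannot be told apart in them either. In the first of them 1189 genes passed (7.35%), and in the second 139 (0.860%). Of the 112 genes higher at P10, 111 were above 0 in each, where 47.5% and 47.3% of all genes were, and 88 and 45 passed as higher, where 4.09% and 0.625% of all genes did. Of the 102 lower genes, 102 and 97 were below 0, where 52.0% and 52.6% of all genes were, and 74 and 18 passed as lower, where 3.27% and 0.235% of all genes did. None of the 214 passed in the opposite direction. In all, 44 higher and 18 lower genes passed in all 3 comparisons.

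Single genes are given side by side. Cdk1 was at -3.23 and -1.99 on the log2 scale in the 2 other comparisons, and Pcolce2 at 4.67 and 3.39. Eln was at 2.07 and 0.38, and the second value did not pass (adjusted p = 0.935). Tdrkh, with no read at P10, was at -0.31 and -0.01. Tspan18, a tetraspanin, and Furin, a proprotein convertase, chosen after their values were seen, rose by 1.40 and 1.12 log2 units between P5 and P10 and were at 0.25 and 0.23 between P2 baseline and P13, without passing there. The genes with an opposite sign in 1 or both comparisons were Ldlrad3, at -0.40 and -0.40, and, after resection alone, Oas1a at 2.63, Plac8 at 1.15, Emb at 0.26, Frrs1 at 0.16 and Spidr at 0.14. Whether a gene's change differed between the comparisons was not tested.

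**Figure D4:**
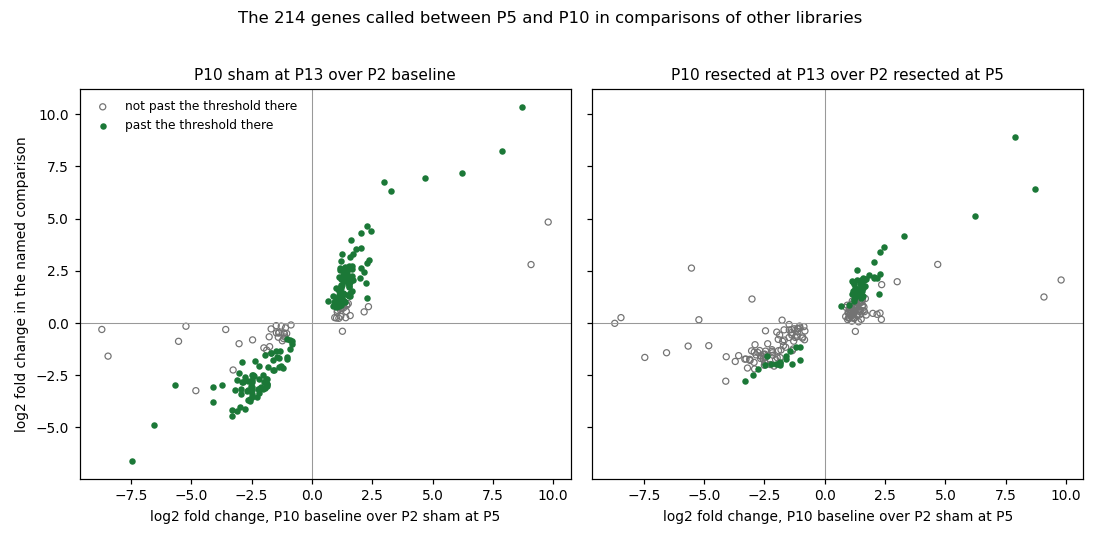
Log2 fold change of the 214 genes called between P5 and P10 (x axis) against their log2 fold change in P10 sham at P13 over P2 baseline (left, y axis) and in P10 resected at P13 over P2 resected at P5 (right, y axis). Filled points passed the test in the comparison on the y axis. All but 1 gene on the left and 6 on the right lie in the quadrants where both values have the same sign.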

How the data were processed

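Bulk RNA was measured in 18 libraries of GFP+ cells, and the authors deposited raw whole-number read counts per gene symbol, made from single-end reads that were trimmed with fastp 0.20.0, aligned to GRCm38.p6 with STAR 2.7.0f and counted over exons without strand by featureCounts (Subread 1.6.4, GENCODE M22). Reads that map to several places or genes are dropped by the default counting, so genes with near-identical copies are less certain. The authors compared groups with DESeq2. Here the counts were fitted with edgeR 4.0.16 (R 4.3.3, quasi-likelihood test, TMM scaling, 1 mean per group over all 18 libraries, filterByExpr with a minimum count of 10), and 16170 of 55453 symbols were tested with Benjamini-Hochberg adjustment at 0.05. The counts summed to 14297349 to 21089775 reads in the P5 libraries and 10462737 to 19635737 in the P10 libraries. No library stood as a copy of another.

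Named genes were up to 12 in each direction with the largest log2 fold change among those called, with no overlap between groups and a mean of at least 5 CPM in the higher group, a few genes fixed by name, and members of 49 gene lists, the called ones first. The alternatives were read for 102 of these genes. The members, lists and tests were chosen with earlier results of these data known. P-values measure the spread between libraries, since the labels do not say that libraries are separate litters. With 3 against 3 libraries an exact permutation test cannot go below 0.1. Counting intervals (95%, exact) and the floor of 3 counts cover counting error only. Same-numbered libraries deviated together (r = 0.378, 0.146 and 0.151 for numbers 1, 2 and 3), although P10 library 3 correlated more with P5 library 2 (r = 0.208) and other pairs of unlike numbers ran from -0.285 to 0.087, so the replicate number was also fitted as a block. Transcripts were compared for shared stretches of 50 bases in GENCODE M21, and promoters came from RefSeq. The fits were tested on simulated data, and alternatives used limma 3.58.1 and DESeq2 1.42.0.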

Additional observations from a re-analysis of the deposited data

How the results depend on the processing

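All 214 genes called between P5 and P10 kept their direction in every alternative that gave them a value. Their groups did not overlap, so a change of sign was hardly possible and the kept direction does not test the calls. Against 112 higher and 102 lower genes, no filter gave 549 (267 higher, 282 lower), DESeq2 907 (454 and 453), limma voom with quality weights 1033 (412 and 621), the 6 libraries alone 1 (1 and 0), leaving out library 1 of both groups 510 (206 and 304) and an offset for exon length 355 (190 and 165), the last 2 chosen after seeing the data. The replicate block gave 316 (158 and 158), and with this pairing Dlgap5 was the only named gene to lose its call. DESeq2 size factors and a stricter filter stayed within 1.5 times of these counts. Leaving out 1 library gave 65 to 442 genes (41 to 196 higher, 24 to 253 lower). For P10 sham +3 days against P2 baseline DESeq2 gave 2191, voom 3863 and leaving out 1 library 632 to 964. For P10 resected against P2 resected no filter gave 526, DESeq2 499, voom 908, the libraries compared alone 332 and leaving out 1 library 30 to 136. For P2 sham +3 days against the mean of the baselines no filter gave 79, DESeq2 161, voom 107 and leaving out 1 library 0 to 2.

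Among 102 named genes followed through the alternatives (list members that were not called, such as Acta2 and Dpt, were not followed), those that changed sign in a fit, all uncalled, were Tcf21 and the 5 sex-linked genes, and the cause was not tested. Tcf21 was at -0.06 log2 units with all libraries, 0.086 with voom and -0.23 to 0.22 without 1 library. Xist was at -0.86 log2 units with all libraries, 1.11 with voom and -3.59 to 1.75 without 1 library. Ddx3y was at 0.18 log2 units with all libraries and -1.06 to 10.78 without 1 library. Eif2s3y was at -0.85 log2 units with all libraries, 4.74 with voom and -1.78 to 9.80 without 1 library. Kdm5d was at -0.41 log2 units with all libraries, 3.92 with voom, 0.079 with the replicate block and -1.38 to 8.39 without 1 library. Uty was at -1.37 log2 units with all libraries, 3.36 with voom and -2.36 to 7.92 without 1 library. Depth limits genes of a few reads per library, such as Pif1 and Olfr78 in the group where they are low.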
